A study of Mus musculus with 2 samples.

Results

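The cytochrome P450 (Cyp) genes of the mouse outside the classic targets of the aryl hydrocarbon receptor were followed in RPE-choroid, which joins the retinal pigment epithelium (RPE) to the vessel bed that nourishes it. All 102 rows of the deposited gene count table whose name is Cyp followed by a digit were taken. Then 7 were left out, namely Cyp1a1, Cyp1a2, Cyp1b1, Cyp2s1, Cyp26a1, Cyp26b1 and Cyp51, which leaves 95 members among 23420 gene rows. A member was called measured with 10 or more counts in at least 3 of the 6 libraries, and 29 of the 95 members were. One group was 3 mice of genotype AhR -/- (strain B6.129-AhRtm1Bra/J), set against 3 AhR +/+ mice of strain C57BL6/J. All mice were untreated and 11 to 13 months old. Each library was polyA-enriched RNA from the 2 eyes of 1 animal, taken after the anterior segment and the retina had been removed. Levels are in CPM, the count of a gene scaled to the summed counts of its library. Ahr had 41.4, 45.4 and 40.6 CPM in the AhR -/- animals 1 to 3, while the wild-type animals 1 to 3 had 19.7, 20.2 and 26.0 CPM. Its count was not lower in the mutant group, and a gene-wide count is blind to the loss of a targeted stretch, so the AhR -/- libraries are called knockout-labelled. The labels give the groups different strain names, so genotype and any difference of strain cannot be told apart. By the RNA of Xist and of Y-linked genes, each group held 1 female, its animal 1, and 2 males. Values per library are given for animals 1, 2 and 3 of a group in that order.

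P450 enzymes are heme proteins that insert oxygen into fatty acids, sterols, retinoids and foreign compounds. Those of the endoplasmic reticulum receive electrons from P450 reductase (Por) and cytochrome b5, and those of mitochondria receive them from ferredoxin (Fdx1) and its reductase (Fdxr). Families numbered 2 and 3 are best known for drug metabolism in liver, family 4 for the hydroxylation of fatty acids and eicosanoids, and the remaining families for steps in sterol, steroid, vitamin D and retinoid metabolism. In the eye the family is best known through human CYP4V2, whose loss causes Bietti crystalline dystrophy, a degeneration of the RPE and choroid.

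The libraries held 18058725 to 28692624 gene counts, and the 95 members together took 0.0798%, 0.0790% and 0.0706% of them in knockout-labelled animals 1 to 3 and 0.0688%, 0.0634% and 0.0636% in wild-type libraries. Markers of cornea and conjunctiva epithelium differed between libraries of the same group and between the groups. The 11 markers, of which none was at 0, summed to 3033, 14210 and 11080 CPM in knockout-labelled libraries, against 5524, 2469 and 2705 CPM in wild-type libraries. Knockout-labelled animals 2 and 3 were high, and knockout-labelled animal 1 lay inside the wild-type range. All 11 had a log2 fold change of knockout-labelled over wild type above 0, with a median of 1.23. In the edgeR test described below, 9 were higher at an unadjusted p under 0.05 and 0 were called. A covariate made from these markers, used below, therefore partly follows genotype. In bulk tissue, fewer cells of a type and less RNA per cell cannot be told apart. The 9 RPE markers summed to between 20950 and 36450 CPM in knockout-labelled libraries and between 27930 and 38420 CPM in wild-type libraries, so the labelled tissue was present in all 6.

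Much of the family was not detected at this depth. Of the 95 members, 52 (54.7%) were listed at 0 in every library, against 23.1% of all gene rows. A further 14 had some counts without being measured. A count of 0 allows up to 3 counts, which is 0.105 to 0.166 CPM in these libraries and covers counting error only. Most genes of several subfamilies known best from liver were among them. None of the 16 Cyp2c genes was measured and 15 were at 0, as were 9 of the 10 Cyp2d genes, 8 of the 9 Cyp3a genes, 4 of the 5 Cyp2b genes and 3 of the 4 Cyp2a genes. Of 10 hepatocyte markers, 4 (Alb, Ahsg, Fgb and Serpina1a) were at 0 as well. Serpina1b, Apoa1, Hpx, Apoa2 and Apoh had at most 0.725 CPM in any knockout-labelled library and 1.16 CPM in any wild-type library, and Ttr, which is also an RPE marker, was abundant (13460 to 20680 CPM in knockout-labelled and 15530 to 22340 CPM in wild-type libraries). Among the steroid hormone enzymes, 0 of 6 were measured: Cyp17a1, Cyp19a1, Cyp21a1 and Cyp11b2 were at 0, and Cyp11a1 and Cyp11b1 reached 22 and 17 counts in their highest library. Cyp7a1, the rate-limiting enzyme of bile acid synthesis, and Cyp24a1, which inactivates vitamin D, were also at 0. By contrast, 12 of the 20 family 4 genes, 7 of the 9 Cyp4f genes among them, and 4 of the 6 sterol and oxysterol genes were measured.

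Just inside the rule for measured genes stood Cyp26c1, Cyp2r1 and Cyp4x1, each with 10 or more counts in exactly 3 libraries. Just outside it stood Cyp27b1, which activates vitamin D and had 9, 9 and 0 counts in knockout-labelled libraries and 6, 10 and 18 counts in wild-type libraries. Cyp2c44, an arachidonic acid epoxygenase, was also outside, with 9, 0 and 41 counts in knockout-labelled libraries and 0, 20 and 6 counts in wild-type libraries.

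The table has further properties that bear on these low values. Counts from 1 to 5 were given for 231, 211 and 244 genes in knockout-labelled animals 1 to 3 and for 567, 933 and 340 genes in wild-type libraries. Counts from 8 to 12 were given for 493, 484 and 468 genes in the knockout-labelled libraries and for 499, 490 and 471 genes in the wild-type libraries. Small counts were thus scarcer than counts around 10 in all libraries but wild-type animals 1 and 2, and the part of this in the comparison of low members was not tested.

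Another property is sequence shared between members. Reads that align to more than 1 place were not counted, and this tally was 25.1%, 23.6% and 22.9% of the sum of all rows in knockout-labelled libraries, against 18.7%, 19.4% and 19.1% in wild-type libraries. The tally was higher in each knockout-labelled library than in each wild-type library. To see which members it could touch, each member's longest transcript was cut into all its runs of 50 bases, and the share that also occurs in transcripts of other genes was taken. The length of the reads is not given in the sources used here, so 50 bases is an assumption, and longer reads would share less. The median share was 15.3% over the 51 members at 0 that have a transcript in the annotation, and 2.72% over the 29 measured members. At least 25% was shared in 17 of those at 0, with Cyp3a41a at 98.6% and Cyp2c40 at 72.1% among the highest. Under 10% was shared in 20 of those at 0, including Cyp17a1, Cyp19a1, Cyp3a11 and Cyp7a1 with 0%. The plot of shared sequence shows both groups of members.

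**Figure D1:**
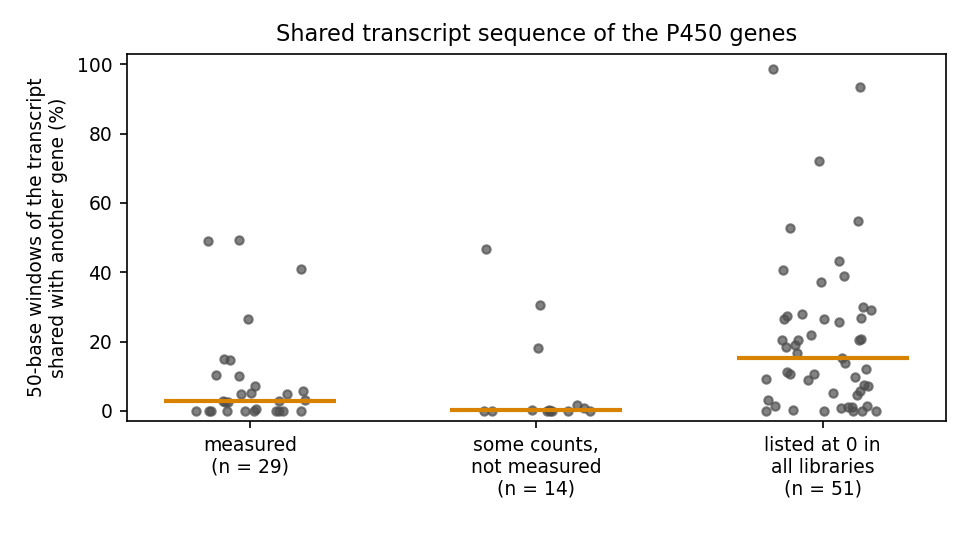
Share of each member's longest transcript, as the percent of its 50-base runs that occur in transcripts of other genes (y axis), for measured members, members with counts that were not measured, and members listed at 0 (x axis). Points are genes and horizontal bars are medians, which were 2.72% for measured members and 15.3% for members at 0.

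Among the measured members, shared sequence exceeded 25% for Cyp4a12b (49.4%), Cyp4a12a (48.9%), Cyp2a5 (40.8%) and Cyp4f16 (26.5%). Cyp4a12a and Cyp4a12b are neighbours on chromosome 4 (plus strand, GRCm38), at chr4:115299046-115332815 and chr4:115411624-115439034. Their coding sequences are 1527 bases each, differ at 23 bases (98.5% identical) and hold an identical run of 342 bases. Both are shown over coding bases 664 to 763, the window richest in differences, to make plain what a read must cover to be assigned to 1 of the pair. Capitals mark the 8 bases that differ.
Cyp4a12a: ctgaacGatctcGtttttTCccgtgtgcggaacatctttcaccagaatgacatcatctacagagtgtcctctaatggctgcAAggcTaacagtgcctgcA
Cyp4a12b: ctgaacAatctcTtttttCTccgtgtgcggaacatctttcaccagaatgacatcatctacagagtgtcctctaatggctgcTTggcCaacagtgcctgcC

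The plot of levels shows the 29 measured members. Of these, 13 averaged 10 CPM or more, 10 averaged 1 to 10 CPM and 6 averaged under 1 CPM. Levels between genes were compared per kilobase (kb) of exon, since longer transcripts give more counts. Cyp2f2, known for bioactivating naphthalene in the club cells of the mouse airway, led the family. Its level was 144 ± 28.8 CPM per kb in knockout-labelled libraries and 115 ± 5.88 CPM per kb in wild-type libraries (SD, n = 3 each). Cyp2d22 came next with 19.7 ± 6.32 and 22.05 ± 1.44 CPM per kb in knockout-labelled and wild-type libraries (SD, n = 3 each). After it came Cyp4a12b, with 25.3 ± 11.6 CPM per kb in knockout-labelled and 9.54 ± 2.68 CPM per kb in wild-type libraries, and Cyp4f17, with 14.3 ± 5.405 and 19.7 ± 2.96 CPM per kb (SD, n = 3 each). This order is by the mean over all 6 libraries. Within the knockout-labelled libraries the spreads of Cyp2d22, Cyp4a12b and Cyp4f17 overlapped, and within the wild-type libraries Cyp4a12b lay below the other 2. Cyp27a1, Cyp39a1 and Cyp4v3 followed with averages over all libraries of 14.3, 10.8 and 10.7 CPM per kb.

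**Figure D2:**
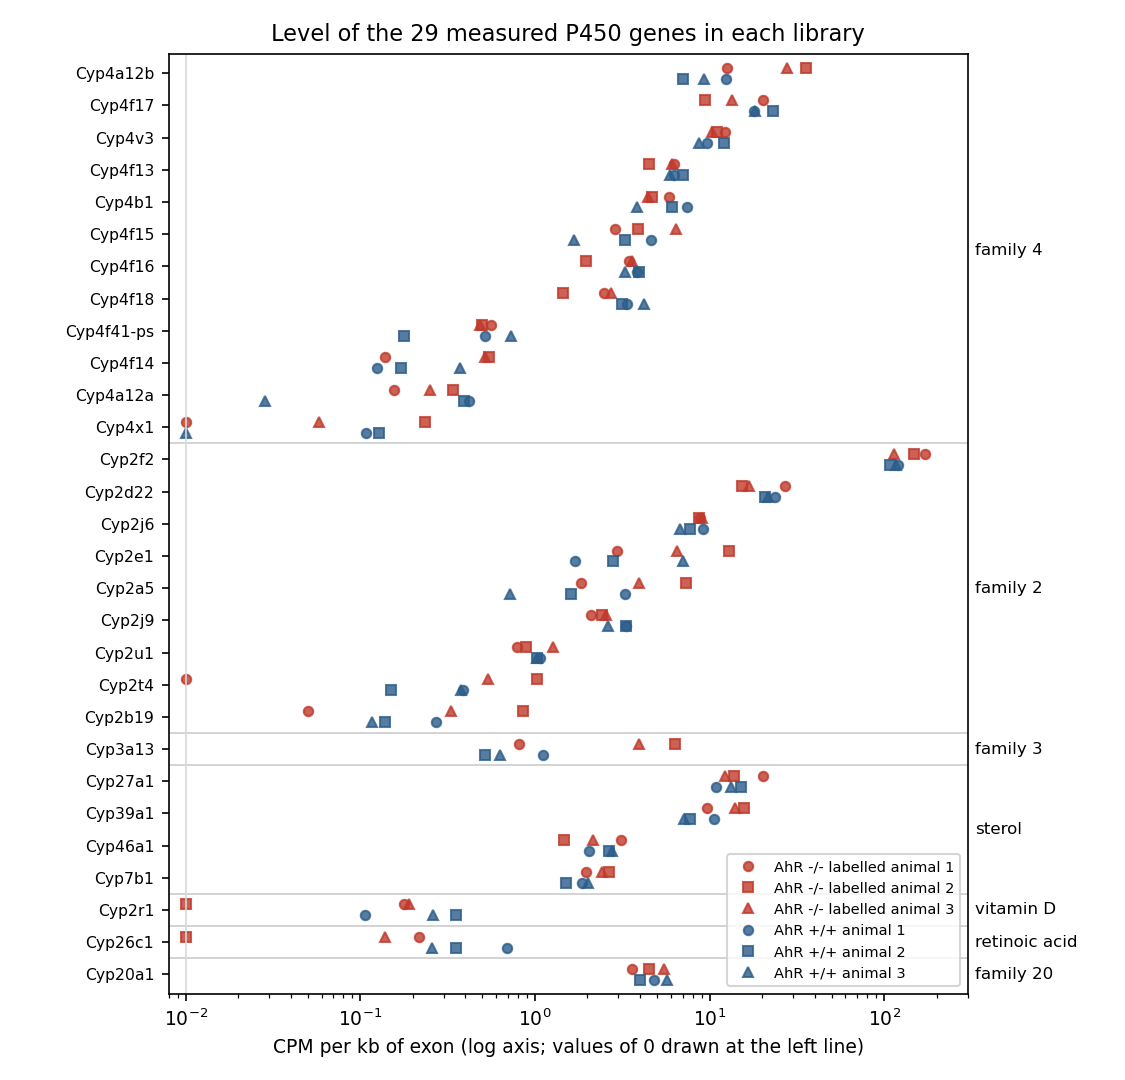
Level of the 29 measured P450 genes as CPM per kb of exon (x axis, log scale), 1 gene per row, grouped by family or role and ordered by level within a group. Points are single libraries, with knockout-labelled (red) above wild type (blue) in each row and values of 0 drawn at the left line; Cyp2f2 stands alone above 100 CPM per kb in all 6 libraries.

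The summed CPM of the 95 members was 815, 783 and 699 in knockout-labelled libraries, against 680.5, 648 and 630.5 in wild-type libraries. All 3 knockout-labelled sums lay above all 3 wild-type sums (766 ± 59.7 against 653 ± 25.4 CPM, SD, n = 3 each). Without Cyp2f2 the sums were 467, 485 and 468 CPM in knockout-labelled libraries, against 438, 428 and 395 CPM in wild-type libraries, again with no overlap. Both sums still hold Cyp4a12b, with 30.3, 85.1 and 66.7 CPM in knockout-labelled libraries, against 29.6, 16.8 and 22.2 CPM in wild-type libraries. With its values taken off, the groups overlap in both sums, so the lack of overlap hangs on that gene. Sums weigh the abundant genes most and were not tested. The share of multiply aligned reads, above, and markers of lacrimal and mucosal glands were also higher in all knockout-labelled libraries. Those 9 markers, of which Lcn11, Obp1a and Scgb2b20 were at 0, summed to 193, 154 and 183 CPM in knockout-labelled libraries, against 33.8, 47.3 and 29.9 CPM in wild-type libraries. Their part in the sum was not tested.

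Gene by gene, no member passed the test. In edgeR's quasi-likelihood test over all 15796 genes, 0 of the 29 measured members were called at a Benjamini-Hochberg adjusted p under 0.05, against 0.0506% of all genes. The members' adjusted p ran from 0.172 to 0.965 in that edgeR test. At an unadjusted p under 0.05 there were 3 members, Cyp4a12b, Cyp3a13 and Cyp39a1, all higher in the knockout-labelled libraries. They are 10.3% of the measured members, against 14.2% of all genes in either direction and 7.55% in that direction, a share near the background. No member was lower at that p, against 6.62% of all genes. The groups did not overlap for 4 members (13.8%), against 20% of all genes: Cyp4a12b was higher, and Cyp2j9, Cyp4f18 and Cyp26c1 were lower in the knockout-labelled libraries. Of all genes, 10% were higher without overlap and 9.96% were lower. Log2 fold changes of knockout-labelled over wild type were above 0 in 16 members and below 0 in 13 (55.2% above 0, against 51.2% of all genes), with a median of 0.14, against 0.01 for all genes. The plot of fold changes gives each member with its standard error.

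**Figure D3:**
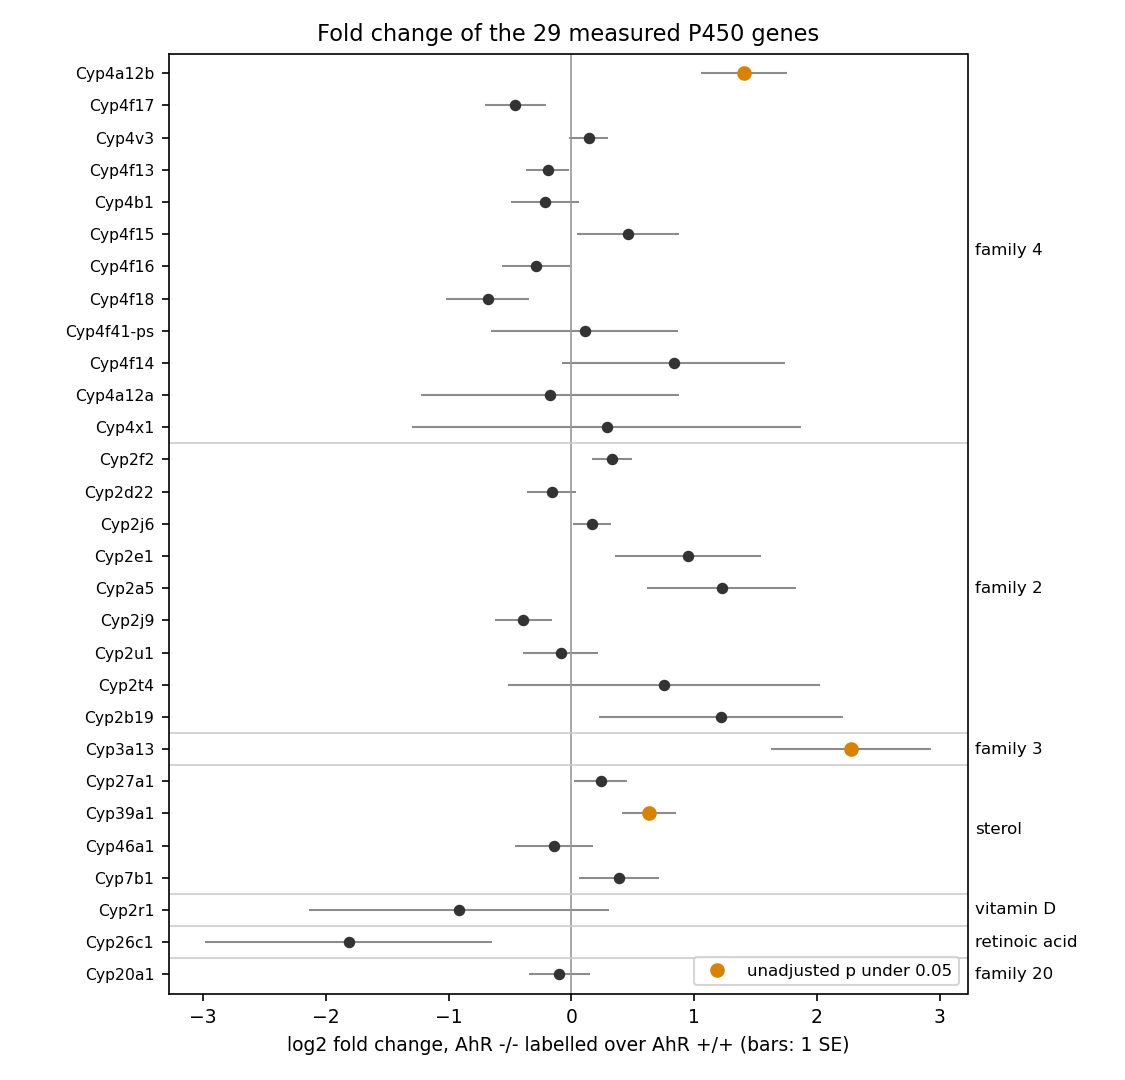
Log2 fold change of the 29 measured P450 genes, knockout-labelled over wild type (x axis), with 1 gene per row. Bars are standard errors and orange points mark an unadjusted p under 0.05. The orange genes Cyp3a13, Cyp4a12b and Cyp39a1 lie at 2.28, 1.41 and 0.63, and bars widen towards the genes with few counts.

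Counts of calls turned on the tool and on 1 library. DESeq2 called 2 of the 29 measured members, against 3.25% of all genes it tested. They were Cyp4a12b (DESeq2 adjusted p = 0.00337) and Cyp3a13 (DESeq2 adjusted p = 0.0124). Without knockout-labelled animal 1, edgeR called 3 of the 29, against 4.95% of all genes. They were Cyp4a12b (log2 fold change 1.73, edgeR adjusted p = 0.0136), Cyp3a13 (2.75, edgeR adjusted p = 0.0165) and Cyp39a1 (0.81, edgeR adjusted p = 0.0487). That animal was the only female of its group, so here and below fits without it are unbalanced in sex. With all libraries and sex as a covariate, the 3 log2 fold changes were 1.34, 2.06 and 0.63 (edgeR adjusted p = 0.242, 0.311 and 0.325). The authors' deposited table lists 39 members and has 2 of them at a false discovery rate (FDR) under 0.05, against 2.37% of the genes it lists. Each of these member shares was above that of all genes, but each rests on only 2 or 3 genes, largely the same ones. In the authors' deposited table Cyp4a12b had a log2 fold change of 1.35 (FDR 0.00019) and Cyp3a13 one of 2.19 (FDR 0.00679), after their sign was turned to knockout-labelled over wild type.

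Family 4 enzymes hydroxylate fatty acids and eicosanoids, mostly at the end of the chain. Of 12 measured, 0 were called, with log2 fold changes above 0 in 6 and below 0 in 6 and a median of -0.03. Cyp4a12b, a mouse arachidonic acid hydroxylase gene, had 30.3, 85.1 and 66.7 CPM in knockout-labelled libraries, against 29.6, 16.8 and 22.2 CPM in wild-type libraries. Every knockout-labelled library lay above every wild-type library, but knockout-labelled animal 1 and wild-type animal 1 were almost level and the other 2 knockout-labelled animals carried the difference. The means were 60.7 ± 27.9 CPM in knockout-labelled and 22.8 ± 6.42 CPM in wild-type libraries (SD, n = 3 each). Its log2 fold change was 1.41 (SE 0.35, edgeR adjusted p = 0.172). The knockout-labelled libraries high in Cyp4a12b were those high in the cornea markers, with sums of 14210 and 11080 CPM. With the mean log2 CPM of those markers as a covariate, its log2 fold change was 0.49 (edgeR adjusted p = 0.507), and 0.75 with that covariate and without knockout-labelled animal 1 (edgeR adjusted p = 0.951). Without that animal, the marker mean was higher in each knockout-labelled library than in each wild-type library. Here and below, that fit can therefore hardly tell the markers from genotype. The near copy Cyp4a12a had only 2 to 27 counts in any library, and the summed level of the Cyp4a genes was 30.7, 86.9 and 67.6 CPM in knockout-labelled libraries, against 30.6, 17.7 and 22.3 CPM in wild-type libraries. Reads from the shared stretches were not counted, so the level of each of the pair is uncertain.

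None of the 7 measured Cyp4f genes was called. Their summed level was 116, 71.2 and 104 CPM in knockout-labelled libraries, against 115, 132 and 109 CPM in wild-type libraries, and the groups overlapped. Cyp4f17, the most abundant of them, had 64.4, 30.2 and 42.9 CPM in knockout-labelled libraries, against 57.2, 73.9 and 57.9 CPM in wild-type libraries. Knockout-labelled animals 2 and 3 were the lowest of the 6 and knockout-labelled animal 1 lay among the wild type (45.8 ± 17.3 against 63.0 ± 9.45 CPM, SD, n = 3 each, log2 fold change -0.46, SE 0.25, edgeR adjusted p = 0.441). The RPE markers, none at 0, were likewise lowest in knockout-labelled animals 2 and 3, with sums of 36450, 20950 and 22730 CPM in knockout-labelled and 27930, 38420 and 33290 CPM in wild-type libraries. The part of RPE content in Cyp4f17 was not tested. Its log2 fold change was -0.04 with the cornea markers as a covariate (edgeR adjusted p = 0.978), and -0.32 with that covariate and without knockout-labelled animal 1 (edgeR adjusted p = 0.9697). Leaving out knockout-labelled animal 1 alone gave -0.78 (edgeR adjusted p = 0.0552), and leaving out knockout-labelled animal 2 alone gave -0.23 (edgeR adjusted p = 0.774).

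Cyp4f18, which inactivates leukotriene B4 in mouse neutrophils, had 4.61, 2.69 and 5.08 CPM in knockout-labelled libraries, against 6.24, 5.83 and 7.84 CPM in wild-type libraries. No knockout-labelled library reached the lowest wild-type one. The difference did not pass (4.12 ± 1.26 against 6.64 ± 1.06 CPM, SD, n = 3 each, log2 fold change -0.68, SE 0.34, edgeR adjusted p = 0.404). Its exons overlap those of Zfp961 on the opposite strand by 181 bases, and without a stated strand setting reads there cannot be told apart. Cyp4f13 had 27.8, 19.9 and 27.2 CPM in knockout-labelled libraries, against 27.9, 31.5 and 26.3 CPM in wild-type libraries, with overlapping groups (log2 fold change -0.19, SE 0.18, edgeR adjusted p = 0.663). The remaining Cyp4f members were lower still. Cyp4f16 averaged 9.22 ± 2.77 CPM in knockout-labelled and 11.3 ± 1.10 CPM in wild-type libraries, and Cyp4f15 averaged 10.04 ± 4.20 and 7.29 ± 3.37 CPM (SD, n = 3 each). Cyp4f14 and the pseudogene Cyp4f41-ps averaged 0.967 and 1.19 CPM in knockout-labelled libraries and 0.537 and 1.10 CPM in wild-type libraries.

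Cyp4v3, the mouse counterpart of human CYP4V2, was among the steadiest members. It had 46.7, 42.3 and 39.3 CPM in knockout-labelled libraries, against 36.8, 46.3 and 33.1 CPM in wild-type libraries. The groups overlapped (42.8 ± 3.74 against 38.8 ± 6.80 CPM, SD, n = 3 each), and the log2 fold change was 0.14 (SE 0.16, edgeR adjusted p = 0.740). The gene lies at chr8:45304944-45333216 (minus strand, GRCm38) and shares 313 exon bases with the predicted gene Gm45753 on the same strand. Cyp4b1, an enzyme that activates protoxins and is also described in rabbit corneal epithelium, had 13.3, 10.6 and 9.99 CPM in knockout-labelled libraries, against 16.8, 13.8 and 8.71 CPM in wild-type libraries. Its knockout-labelled values all lay inside the wild-type range (log2 fold change -0.21, SE 0.27, edgeR adjusted p = 0.775), so it did not share the library order of the cornea markers. Cyp4x1, a brain-enriched member, averaged 0.410 CPM in knockout-labelled and 0.329 CPM in wild-type libraries.

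Family 2 holds drug-metabolising enzymes and arachidonic acid epoxygenases. Of the 49 members other than Cyp2r1, 9 were measured, 0 were called, and their median log2 fold change was 0.33, with 6 above 0 and 3 below. Cyp2f2 had 347, 298 and 231 CPM in knockout-labelled libraries, against 243, 219 and 235 CPM in wild-type libraries. Knockout-labelled animals 1 and 2 were the highest of the 6 and knockout-labelled animal 3 lay among the wild type. The means were 292 ± 58.4 and 232 ± 11.9 CPM in knockout-labelled and wild-type libraries (SD, n = 3 each). Its log2 fold change was 0.33 (SE 0.17, edgeR adjusted p = 0.405). With the cornea covariate it was 0.44 (edgeR adjusted p = 0.560), and -0.045 without knockout-labelled animal 1 as well (edgeR adjusted p = 0.992). Cyp2f2 alone made up 33.1% to 42.7% of the family's summed CPM in knockout-labelled libraries and 33.9% to 37.3% in wild-type libraries. Its library order differed from that of the cornea markers, which were low in knockout-labelled animal 1, where Cyp2f2 was highest. The gene lies at chr7:27119909-27133660 (plus strand, GRCm38), and 274 of its exon bases overlap the antisense RNA Gm15883.

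Cyp2d22, the only Cyp2d gene with counts, had 105, 60.3 and 65.5 CPM in knockout-labelled libraries, against 92.4, 81.5 and 84.6 CPM in wild-type libraries. The knockout-labelled libraries lay on both sides of the wild type (log2 fold change -0.16, SE 0.20, edgeR adjusted p = 0.771). Without knockout-labelled animal 1 its log2 fold change was -0.46 (edgeR adjusted p = 0.0703). Of the epoxygenase subfamily Cyp2j, 2 of 7 genes were measured. Cyp2j6 had 31.7, 31.2 and 32.5 CPM in knockout-labelled libraries, against 32.9, 27.7 and 24.4 CPM in wild-type libraries, with overlapping groups (log2 fold change 0.17, SE 0.16, edgeR adjusted p = 0.671). Cyp2j9, an arachidonic acid hydroxylase first described in mouse brain, had 6.95, 8.12 and 8.54 CPM in knockout-labelled libraries, against 11.1, 11.1 and 8.71 CPM in wild-type libraries. The groups did not overlap, but knockout-labelled animal 3 and wild-type animal 3 were almost level (log2 fold change -0.39, SE 0.23, edgeR adjusted p = 0.489).

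Cyp2e1, the ethanol- and acetone-oxidising enzyme, varied widely between animals of 1 group. It had 6.41, 28.0 and 14.1 CPM in knockout-labelled libraries, against 3.65, 6.03 and 15.3 CPM in wild-type libraries. Wild-type animal 3 lay above 2 of the 3 knockout-labelled animals (log2 fold change 0.95, SE 0.59, edgeR adjusted p = 0.506). Leaving out knockout-labelled animal 2 gave a log2 fold change of 0.30. Leaving out an animal of the wild type gave 0.59 (animal 1), 0.76 (animal 2) or 1.71 (animal 3). It was 0.11 with the cornea covariate, and 2.93 with that covariate and without knockout-labelled animal 1, with edgeR adjusted p between 0.183 and 0.988 over all alternatives. The 8 adipocyte markers, none at 0, ran in a similar order, with sums of 89.2, 227 and 184 CPM in knockout-labelled and 79.3, 92.5 and 140 CPM in wild-type libraries, and their part in Cyp2e1 was not tested. Cyp2a5, a coumarin hydroxylase, had 3.81, 15.3 and 8.14 CPM in knockout-labelled libraries, against 6.77, 3.35 and 1.49 CPM in wild-type libraries. Its values were high where the cornea markers were high, in both groups (log2 fold change 1.23, SE 0.61, edgeR adjusted p = 0.402). Cyp2u1, a fatty acid hydroxylase, averaged 5.15 ± 1.32 CPM in knockout-labelled and 5.48 ± 0.138 CPM in wild-type libraries (SD, n = 3 each). Cyp2b19, an epoxygenase of mouse keratinocytes, averaged 1.72 and 0.730 CPM in knockout-labelled and wild-type libraries, and Cyp2t4 averaged 0.862 and 0.503 CPM.

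Of family 3, only Cyp3a13 was measured. It had 2.39, 18.7 and 11.6 CPM in knockout-labelled libraries, against 3.31, 1.53 and 1.87 CPM in wild-type libraries. Knockout-labelled animals 2 and 3 stood far above the other 4 libraries, and knockout-labelled animal 1 lay inside the wild-type range. The means were 10.9 ± 8.19 CPM in knockout-labelled and 2.23 ± 0.946 CPM in wild-type libraries (SD, n = 3 each). Its log2 fold change of 2.28 (SE 0.65) was the largest of the measured members in size and did not pass (edgeR adjusted p = 0.1998). With the cornea markers as a covariate it was 0.39 (edgeR adjusted p = 0.874), and 1.28 with that covariate and without knockout-labelled animal 1 (edgeR adjusted p = 0.951). Cyp20a1, an orphan P450 that forms a family of its own, had 8.21, 10.3 and 12.5 CPM in knockout-labelled libraries, against 11.0, 9.09 and 13.1 CPM in wild-type libraries. Its groups overlapped (log2 fold change -0.10, SE 0.25, edgeR adjusted p = 0.901).

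**Figure D4:**
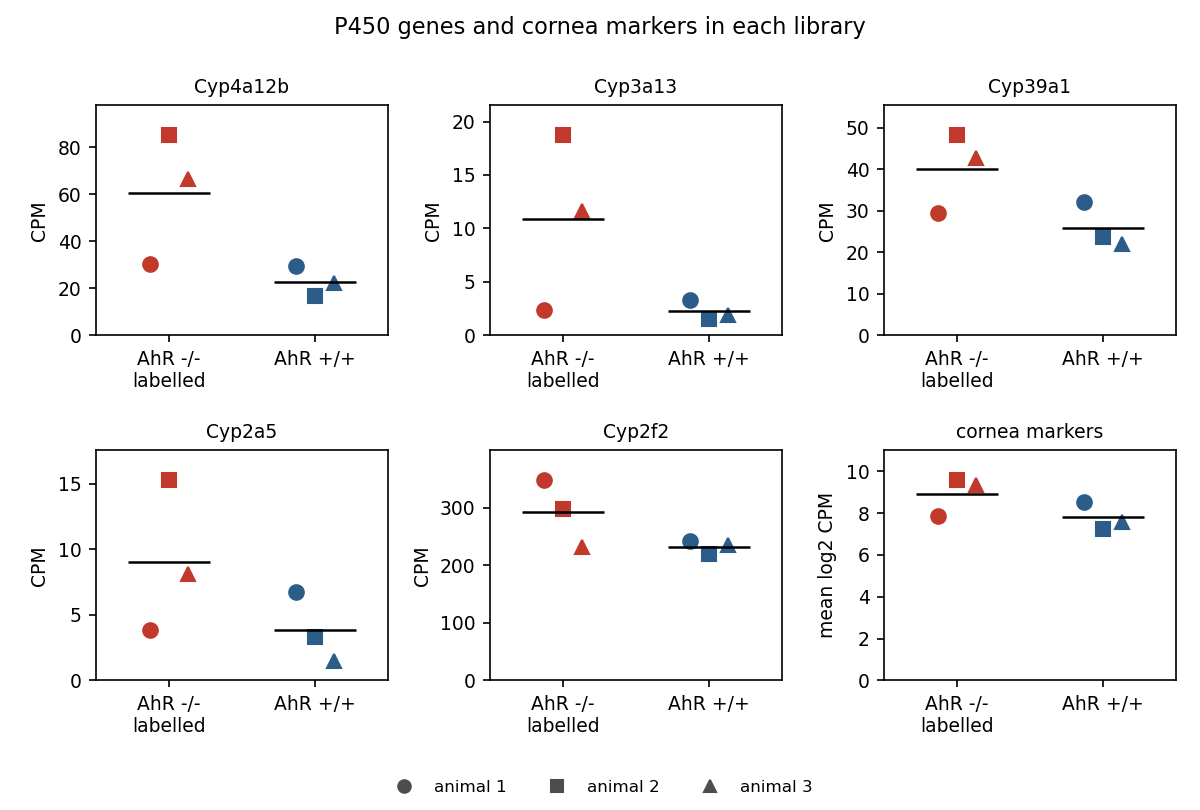
CPM of Cyp4a12b, Cyp3a13, Cyp39a1, Cyp2a5 and Cyp2f2 and, in the last panel, the mean log2 CPM of 11 cornea and conjunctiva markers (y axes), for knockout-labelled animals 1 to 3 and wild-type animals 1 to 3 (x axis). The marker mean is 7.84, 9.57 and 9.35 in knockout-labelled animals 1 to 3 and 8.56, 7.26 and 7.59 in wild-type libraries; knockout-labelled animals 2 and 3 are high in the markers and in all the P450 genes plotted except Cyp2f2, which is highest in knockout-labelled animals 1 and 2.

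The sterol and oxysterol enzymes turn cholesterol and its oxidised forms towards bile acids. Their summed CPM was 88.8, 88.9 and 81.9 in knockout-labelled libraries, against 66.7, 68.8 and 64.2 in wild-type libraries. The groups did not overlap, and the spread within each was small (86.5 ± 4.005 against 66.6 ± 2.32 CPM, SD, n = 3 each), although none of the 4 measured members passed on its own. This sum was not tested, and the summed CPM of families 2, 3 and 4 overlapped between the groups. The groups also did not overlap for the sum of all members, above, and for 20% of all single genes. Cyp39a1, an oxysterol hydroxylase, had 29.5, 48.2 and 42.8 CPM in knockout-labelled libraries, against 32.2, 23.7 and 21.9 CPM in wild-type libraries. Knockout-labelled animals 2 and 3 were the highest and knockout-labelled animal 1 lay below wild-type animal 1 (40.2 ± 9.60 against 25.9 ± 5.48 CPM, SD, n = 3 each, log2 fold change 0.63, SE 0.22, edgeR adjusted p = 0.258). With the cornea markers as a covariate the log2 fold change was 0.18 (edgeR adjusted p = 0.840), and 0.16 when knockout-labelled animal 1 was left out as well (edgeR adjusted p = 0.982).

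Cyp27a1, the mitochondrial sterol hydroxylase, had 44.2, 30.1 and 26.8 CPM in knockout-labelled libraries, against 23.8, 33.1 and 28.7 CPM in wild-type libraries. Its excess came from knockout-labelled animal 1 alone, the other 2 lying inside the wild-type range (log2 fold change 0.24, SE 0.22, edgeR adjusted p = 0.657). Cyp27a1 was thus high in the knockout-labelled animal in which Cyp39a1 was low. In the knockout-labelled libraries the sum of the sterol and oxysterol genes therefore varied less than either gene (SD 4.005 against 9.24 CPM for Cyp27a1 and 9.60 CPM for Cyp39a1). With the cornea covariate the log2 fold change of Cyp27a1 rose to 0.63 (edgeR adjusted p = 0.335). It was 0.54 without knockout-labelled animal 1 as well (edgeR adjusted p = 0.954). Cyp7b1, an oxysterol hydroxylase, averaged 5.09 ± 0.755 CPM in knockout-labelled and 3.88 ± 0.559 CPM in wild-type libraries (SD, n = 3 each, log2 fold change 0.39, SE 0.33, edgeR adjusted p = 0.631). Cyp46a1, the cholesterol hydroxylase of neurons, averaged 7.38 ± 2.71 and 8.17 ± 1.26 CPM (SD, n = 3 each, log2 fold change -0.14, SE 0.32, edgeR adjusted p = 0.881). It is the only member on chromosome 12, where Ahr lies.

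Cyp2r1 and Cyp26c1, the measured vitamin D and retinoic acid enzymes among the members, were low; the retinoic acid enzymes Cyp26a1 and Cyp26b1 lie outside the rule. Cyp2r1, which makes the circulating form of vitamin D, averaged 0.260 CPM in knockout-labelled and 0.507 CPM in wild-type libraries, with overlapping groups. Cyp26c1, a retinoic acid hydroxylase, had 9, 0 and 6 counts in knockout-labelled libraries, against 32, 15 and 13 counts in wild-type libraries. Each wild-type library was higher than each knockout-labelled one (log2 fold change -1.81, SE 1.17, edgeR adjusted p = 0.519).

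Promoters were read for 20 of the 29 measured members from RefSeq (GRCm38.p6), as 250 bases before to 50 bases after the annotated start. The receptor binds DNA at a core of the letters GCGTG. On both strands this core occurred for 7 of the 20 members (35.0%), against 35.1% of 27025 genes, namely for Cyp20a1, Cyp2j9, Cyp2r1, Cyp46a1, Cyp4f14, Cyp4f16 and Cyp4v3. A gene with several annotated starts counted if any of its promoters held the motif. Cyp4f14 has several, and only 1 of its promoters held the core. The longer motif TNGCGTG, which contains the core, was in 0 of 20, against 5.84% of genes. The nuclear receptor site AGGTCA, on both strands, was in 4 of 20 (Cyp2a5, Cyp2b19, Cyp2f2 and Cyp2t4), against 18.1% of genes, and its direct repeat with 1 base between, known as DR1, in 0 of 20, against 0.0481%. The TATA box TATAAA, on the gene's strand, was in 2 of 20, Cyp2a5 and Cyp2e1, against 9.77% of genes. Of the members with a core, Cyp2j9 was the only one whose groups did not overlap. Shown, on the gene's strand, are the promoters of Cyp46a1, which holds the most cores (4), of Cyp2j9, which holds 1 core, and of Cyp3a13, the member with the largest fold change, which holds none. Capitals mark the core on either strand. They lie at chr12:108334066-108334365 (plus), chr4:96591436-96591735 (minus) and chr5:137921570-137921869 (minus).
Cyp46a1: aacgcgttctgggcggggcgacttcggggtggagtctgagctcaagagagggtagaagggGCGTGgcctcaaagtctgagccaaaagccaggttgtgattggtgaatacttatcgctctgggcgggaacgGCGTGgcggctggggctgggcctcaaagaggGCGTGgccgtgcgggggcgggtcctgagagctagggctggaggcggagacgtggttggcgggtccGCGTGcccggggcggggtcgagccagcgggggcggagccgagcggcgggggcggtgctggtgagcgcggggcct
Cyp2j9: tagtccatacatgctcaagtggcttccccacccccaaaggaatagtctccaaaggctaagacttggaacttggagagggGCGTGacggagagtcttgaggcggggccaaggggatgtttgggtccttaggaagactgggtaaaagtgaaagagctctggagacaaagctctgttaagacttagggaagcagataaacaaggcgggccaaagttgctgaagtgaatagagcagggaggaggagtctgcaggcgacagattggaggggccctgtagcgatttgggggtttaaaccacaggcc
Cyp3a13: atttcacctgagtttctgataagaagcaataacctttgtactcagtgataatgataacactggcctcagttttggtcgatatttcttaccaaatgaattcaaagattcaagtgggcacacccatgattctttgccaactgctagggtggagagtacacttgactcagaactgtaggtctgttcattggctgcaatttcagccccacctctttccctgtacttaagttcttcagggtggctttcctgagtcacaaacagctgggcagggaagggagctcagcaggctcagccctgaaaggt

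The genes that serve or neighbour the family in metabolism were taken as lists chosen by function. In edgeR 0 of the 82 tested were called, against 0.0506% of all genes, and DESeq2 called 2, Ptgis and Alox12, against 3.25% of all genes, a share no higher than the background. Of 10 redox partners tested, 6 had log2 fold changes above 0, the median was 0.14, and 1 was higher and 1 lower at an unadjusted p under 0.05. Por averaged 163 ± 9.58 CPM in knockout-labelled and 147 ± 22.2 CPM in wild-type libraries (SD, n = 3 each, log2 fold change 0.15, edgeR adjusted p = 0.683). Cyb5b, a cytochrome b5, had 164, 183 and 186 CPM in knockout-labelled libraries, against 138, 154 and 150.1 CPM in wild-type libraries, with no overlap (log2 fold change 0.27, edgeR adjusted p = 0.363). Cyb5r3, a cytochrome b5 reductase, had 176, 145 and 139 CPM in knockout-labelled libraries, against 187, 185 and 177 CPM in wild-type libraries, also with no overlap (log2 fold change -0.26, edgeR adjusted p = 0.420). Pgrmc1, a heme-binding partner of P450s, averaged 312 and 286 CPM in knockout-labelled and wild-type libraries.

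Of 12 genes of heme synthesis and breakdown, 6 lay above 0 and 6 below, with a median of 0.02 and 1 higher at an unadjusted p under 0.05. Fech, which inserts the iron into heme, had 117, 89.6 and 88.3 CPM in knockout-labelled libraries, against 65.4, 73.7 and 64.7 CPM in wild-type libraries. The groups did not overlap, and the difference did not pass (log2 fold change 0.53, SE 0.14, edgeR adjusted p = 0.185). The 7 erythroid markers in the table summed to 1222, 81.1 and 105 CPM in knockout-labelled libraries, against 24.7, 37.7 and 53.4 CPM in wild-type libraries, with Hba-a1 and Hba-a2 at 0. Among them Alas2, the heme synthesis enzyme of red cells, which is not one of the 12 genes, had 847, 45.4 and 57.9 CPM in knockout-labelled libraries, against 3.76, 16.2 and 27.4 CPM in wild-type libraries (log2 fold change 4.33, edgeR adjusted p = 0.185). Knockout-labelled animal 1 was thus highest in red cell RNA and in Fech, and the part of red cell RNA in Fech was not tested. Of 17 nuclear receptors and related regulators of P450 genes tested, 8 lay above 0 and 9 below (median -0.14), with 1 higher and 2 lower at that unadjusted p. Nr1i2 and Nr1i3, the receptors best known for inducing Cyp3a and Cyp2b genes in liver, were too low to be tested. Their levels were at most 0.628 CPM in any knockout-labelled library and 0.702 CPM in any wild-type library.

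Of 19 genes that release arachidonic acid or use it in other pathways, 10 lay above 0 and 9 below (median 0.07), with 3 higher and 2 lower at that unadjusted p. Ptges, a prostaglandin E synthase, had 139, 86.9 and 117 CPM in knockout-labelled libraries, against 144, 190 and 163 CPM in wild-type libraries, with no overlap (log2 fold change -0.53, SE 0.18, edgeR adjusted p = 0.258). Of the P450 enzymes named otherwise, prostacyclin synthase (Ptgis) had 129, 102 and 92.7 CPM in knockout-labelled libraries, against 154, 152 and 177 CPM in wild-type libraries. All knockout-labelled libraries were lower than all wild-type ones (log2 fold change -0.58, SE 0.15, edgeR adjusted p = 0.185). DESeq2 called Ptgis (adjusted p = 0.0262), as did edgeR once knockout-labelled animal 1 was left out (edgeR adjusted p = 0.0255). Sums of 3 marker sets, with none at 0, were also lower in all knockout-labelled libraries, and 0 of these markers were called in edgeR. The 10 choroid endothelium markers had 934, 714 and 616 CPM in knockout-labelled and 1063, 1001 and 1044 CPM in wild-type libraries. The 7 fibroblast and sclera markers had 8455, 9014 and 8304 CPM, against 10320, 9723 and 12170 CPM in wild-type libraries. The 7 smooth muscle and pericyte markers had 949, 791 and 712 CPM, against 1104, 1090 and 989 CPM in wild-type libraries. The part of these markers in Ptgis was not tested. Thromboxane synthase (Tbxas1) averaged 6.15 and 5.62 CPM in knockout-labelled and wild-type libraries. Among 13 conjugating enzymes and 9 flavin and other oxidases tested, the median log2 fold changes were 0.22 and 0.08, with 1 conjugating enzyme higher and 1 oxidase lower at that unadjusted p. Of the 5 tested P450 genes outside the rule, 0 were called in the same edgeR test and 1 was higher at that unadjusted p (median 0.22), while DESeq2 called 1, Cyp51 (adjusted p = 0.0032).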

How the data were processed

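The deposited gene counts are whole numbers per animal, made by the authors with HTSeq after TopHat and Bowtie alignment to mm10, per the submitters' processing notes. Which annotation and strand setting were used is not given in these sources. The deposited table of the authors' edgeR results holds log2 fold changes (wild type over knockout, sign turned here), log2 CPM, p-values and FDR values. The 5 tally rows (reads of no gene, ambiguous, of low quality, unaligned, or aligned to more than 1 place) stayed out of library sizes and tests: no-gene reads were 14.4% to 16.8% and ambiguous reads 0.417% to 0.784% of a library's total with tallies.

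Genes were first filtered by group with filterByExpr (at least 10 counts, and 15 in total), which left 15796. Genotype alone entered edgeR's quasi-likelihood model (edgeR 4.0.16, R 4.3.3) with TMM factors, and p-values were adjusted after Benjamini and Hochberg over those genes. The SE was obtained as the size of the log2 fold change over the root of the F statistic. CPM uses TMM-adjusted library sizes. DESeq2 1.42.0 and limma 3.58.1 (voom) were alternatives, with RLE factors, other filters, GC offsets (lowess span 0.3), covariates for the cornea markers and for sex read from the RNA, the animal number as a block, and each library left out. The main edgeR fit was tried on simulated counts with known changes. It called 43.4% of genes set to a log2 fold change of 1 in size and 79.6% of those set to 2, with 9 false calls. True changes of these sizes can thus be missed. Exon lengths, coordinates and transcripts came from GENCODE M21 (GRCm38), which matched 94 of the 95 members. Groups and animals came from the labels, and each library pair differed by more than counting noise.

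Values in every library were given for called members, the 12 most abundant, those with a mean CPM of at least 1 whose groups did not overlap, and those with an unadjusted p under 0.05 and a mean CPM of at least 0.5. Cyp2a5, Cyp26c1, Cyp27b1 and Cyp2c44 lie outside that rule and were picked after their values were seen. From other lists the rule took up to 4 of the most abundant genes, not all of which are given. The members and lists were chosen with earlier results of these data known.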

Additional observations from a re-analysis of the deposited data

How the results depend on the processing

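The count of 0 called members was 2 with DESeq2 and ran from 0 to 3 when 1 library was left out, the 3 coming without knockout-labelled animal 1. In the other alternatives run it was 0, at an adjusted p under 0.10 included. Partner and related genes had 2 calls with DESeq2 and 0 to 4 with 1 library left out, against 0; the 4 of 83 without knockout-labelled animal 1 were Fdxr, Ptgis, Rara and Ugt1a6a, a share near the 4.95% of all genes called there, as the 2 of 82 were no more than DESeq2's 3.25%. Members at an unadjusted p under 0.05, 3 in all, numbered 5 with the GC correction, 1 with that correction and the block, and 2 to 7 with 1 library left out. They numbered 1 with the cornea covariate and without knockout-labelled animal 1, an alternative chosen after seeing the data, as was summing Cyp4a12a with Cyp4a12b, which left 3. With the animal number as a replicate block, 0 members were called and 3 had an unadjusted p under 0.05. Same-numbered animals did not deviate together (r = -0.07, -0.07 and -0.05). This gave no sign of pairing by number, but with 3 animals a group it cannot exclude pairing.

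Log2 fold changes turned sign for Cyp2f2 (-0.045) and Cyp2j6 (-0.22) with the cornea covariate and without knockout-labelled animal 1, for Cyp2d22 (0.079) with the cornea covariate, and in fits that left out 1 library. Those fits gave -0.0053 to 0.38 for Cyp27a1 (below 0 without knockout-labelled animal 1), -0.26 to 0.045 for Cyp20a1 (above 0 when knockout-labelled animal 1 or wild-type animal 3 was left out) and -0.46 to 0.0041 for Cyp4b1 (above 0 without wild-type animal 1). The cause was not tested. Over the alternatives, Cyp4a12b ran from 0.49 to 1.73, Cyp3a13 from 0.39 to 2.75 and Cyp39a1 from 0.16 to 0.81. The cornea covariate did not shrink every change. Larger in size with it were Cyp27a1 (0.63), Cyp2f2 (0.44), Cyp4v3 (0.29), Cyp2j9 (-0.54) and Cyp20a1 (-0.35). Smaller in size were Cyp4a12b, Cyp3a13, Cyp39a1, Cyp4f17, Cyp2e1, Cyp2d22, Cyp2j6, Cyp4f13, Cyp4b1 and Cyp4f18. Depth limits the 6 members under 1 CPM, and 3 animals a group limit all.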

Other observations

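The ferredoxin pair that feeds electrons to mitochondrial P450s such as Cyp27a1 differed in direction. These genes were picked after their values were seen. Fdx1 had 52.3, 70.0 and 52.9 CPM in knockout-labelled libraries, against 39.8, 48.0 and 38.3 CPM in wild-type libraries (log2 fold change 0.47, SE 0.16, edgeR adjusted p = 0.247). Fdxr, its reductase, had 11.3, 4.23 and 5.92 CPM in knockout-labelled libraries, against 15.8, 14.4 and 13.0 CPM in wild-type libraries (log2 fold change -1.01, SE 0.34, edgeR adjusted p = 0.250). Neither pair of groups overlapped, and neither difference passed. Without knockout-labelled animal 1, Fdxr passed (log2 fold change -1.50, edgeR adjusted p = 0.0254).

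The arachidonate lipoxygenase gene Alox12 had 43.9, 42.1 and 34.4 CPM in knockout-labelled libraries, against 25.8, 17.9 and 24.7 CPM in wild-type libraries, with no overlap (log2 fold change 0.81, SE 0.18, edgeR adjusted p = 0.145). DESeq2 called this gene (adjusted p = 0.0122). The glucuronosyltransferase Ugt1a6a had 4.52, 23.7 and 16.9 CPM in knockout-labelled libraries, against 8.27, 5.83 and 4.87 CPM in wild-type libraries (log2 fold change 1.25, SE 0.51, edgeR adjusted p = 0.320). As for Cyp3a13, knockout-labelled animals 2 and 3 were high and knockout-labelled animal 1 was low, and without that animal Ugt1a6a passed (log2 fold change 1.68, edgeR adjusted p = 0.0238). Both genes were picked after their values were seen.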
